A study of Mus musculus with 31 samples.

Results

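Oxidative phosphorylation is the step by which mitochondria pass electrons from NADH and succinate to oxygen and use the proton gradient this builds to make ATP. The nuclear genes that code for its protein subunits were followed here in the livers of mouse pups that lack Pax8, a gene needed to form the thyroid, and were given T3, T4, both or vehicle, and of control pups. Members were all genes whose symbol begins with Nduf followed by A, B, C, S or V and a number, with Uqcr, with Sdh followed by A to D, with Cox4 to Cox8 followed by a, b or c, or with Atp5. Symbols containing -ps were left out, and a mean of at least 5 CPM, counts scaled to the size of the library, was required over all libraries. Of 43629 genes in the count table, 82 had such a symbol and 76 passed the limit: 35 of complex I, 4 of complex II, 8 of complex III, 12 of complex IV and 17 of complex V. The rule leaves out some true subunits by their spelling, among them Cox4i1, Cox4i2 and Ndufab1. Atp5s and Atp5sl are counted in complex V by their symbols, and whether they code for subunits was not checked.

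The study holds 31 liver RNA-seq libraries, each from 1 numbered animal of the C57Bl/6J background on postnatal day 14, injected every other day from postnatal day 2. All 5 groups lack Dio1 and Dio2, the deiodinases that convert the prohormone T4 to the active hormone T3. Pups of genotype Dio1KO/Dio2KO/Pax8KO received T3 and T4 together (T3+T4, n = 7), T3 (n = 6), T4 (n = 8) or vehicle (n = 5). Control pups were Dio1KO/Dio2KO/Pax8Het and received vehicle (n = 5). Pax8 is the transcription factor needed to form the hormone-producing follicular cells of the thyroid. By their labels the first 4 groups share this genotype and were given different hormones, and vehicle and control livers differ in Pax8. The labels give no hormone dose and do not say which animals were littermates. The column names give the sex of every T3 and T3+T4 liver, both sexes in each group, but of only some T4, vehicle and control livers.

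Complex I oxidizes NADH, complex II oxidizes succinate and also works in the citric acid cycle, complex III passes electrons from ubiquinol to cytochrome c, complex IV reduces oxygen, and complex V is the ATP synthase. Most subunits are nuclear, and the rest come from the mitochondrial genome. Thyroid hormone raises respiration in the liver, and it acts on nuclear genes through receptors that bind DNA. NRF1, the ETS factor GABP and YY1 are transcription factors known to bind many promoters of respiratory genes.

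Library totals ranged from 4383769 to 7158919 counts. They were higher in livers given T3, with means of 6353684 ± 534439 in T3+T4 livers and 6070280 ± 481634 in T3 livers. Means were 5343109 ± 528829 in T4 livers, 5297107 ± 301534 in vehicle livers and 5413170 ± 395846 in control livers (SD). Dio1 reads were still counted in these knockout livers, at 187 ± 43 CPM in T3+T4, 135 ± 53 in T3, 34.3 ± 17 in T4, 12.7 ± 4.4 in vehicle and 169 ± 32 in control livers. The deleted part of Dio1 is not stated in the sources used here, so this level does not check the Dio1 knockout label. The mean was lowest in vehicle livers and higher in each group given hormone and in control livers. Group means were 2.85 to 3.19 CPM for Dio2 and 1.10 to 2.74 CPM for Pax8, too low in liver to check a label. Hepatocyte markers were abundant in every library: the mean of Alb, Apoa1, Ttr, Serpina1a, Cps1 and Apob lay between 667 and 962 CPM. Skeletal muscle or pancreatic acinar genes averaged at least 5 CPM in 4 of 7 T3+T4 livers, 2 of 6 T3 livers, 3 of 8 T4 livers, 2 of 5 vehicle livers and 1 of 5 control livers. Animal numbers from 54 to 85 cover every T3+T4 and T3 liver, but only 5 of 8 livers given T4, 2 of 5 given vehicle and 1 of 5 controls. The labels do not say what these numbers stand for. The 37 genes of the mitochondrial chromosome stood at the table's lowest value in every library, so the mitochondrially encoded subunits were not analysed here.

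Stretches of 5 member promoters are shown, 4 because the calls below fall on their genes and that of Cox6a1 for its motif matches. Windows of 250 bases before to 50 bases after the start were taken from RefSeq (GRCm38.p6) for 65 of the 76 members. At least 1 exact match to an NRF1, ETS or YY1 motif stood in 35 of these windows (53.8%), against 28.5% of the windows of all tested genes. The bases below lie before the RefSeq start and outside annotated exons, as parts of these windows, with motif matches on either strand in capitals. The motifs marked are GCGCA, any base and GCGC for NRF1, CCAAT for NF-Y and GGGCGG for SP1. The Cox7a2l stretch lies before the start of its protein-coding transcripts and within an intron of a longer noncoding transcript of the gene.
Cox6a1, chr5:115348982-115349129, minus strand: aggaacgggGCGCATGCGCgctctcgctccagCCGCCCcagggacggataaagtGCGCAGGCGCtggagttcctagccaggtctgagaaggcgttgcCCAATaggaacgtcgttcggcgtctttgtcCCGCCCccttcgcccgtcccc
Atp5b, chr10:128083057-128083272, plus strand: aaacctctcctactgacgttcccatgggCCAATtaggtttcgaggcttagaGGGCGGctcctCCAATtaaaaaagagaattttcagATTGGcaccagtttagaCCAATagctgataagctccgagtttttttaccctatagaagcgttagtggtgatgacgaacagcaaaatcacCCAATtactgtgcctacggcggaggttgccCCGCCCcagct
Atp5s, chr12:69724874-69724944, plus strand: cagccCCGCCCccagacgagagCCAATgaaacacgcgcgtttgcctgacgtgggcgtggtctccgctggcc
Ndufa6, chr15:82354323-82354541, minus strand: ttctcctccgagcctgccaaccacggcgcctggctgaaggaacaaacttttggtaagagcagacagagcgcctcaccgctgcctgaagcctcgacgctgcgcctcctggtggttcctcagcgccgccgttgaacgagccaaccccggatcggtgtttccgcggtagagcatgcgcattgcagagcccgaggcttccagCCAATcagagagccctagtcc
Cox7a2l, chr17:83514334-83514583, minus strand: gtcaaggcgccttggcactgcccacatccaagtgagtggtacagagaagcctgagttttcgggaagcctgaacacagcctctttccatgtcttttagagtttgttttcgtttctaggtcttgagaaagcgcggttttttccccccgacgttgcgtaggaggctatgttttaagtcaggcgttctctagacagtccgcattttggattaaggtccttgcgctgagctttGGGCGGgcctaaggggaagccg

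The stretch of Cox6a1, a broadly expressed subunit of complex IV, holds 2 NRF1 matches, and that of Atp5b, the catalytic beta subunit of the ATP synthase, holds 5 CCAAT boxes counted over both strands. The NRF1 motif stood in 17 of the 65 member windows (26.2%), against 10.5% of the windows of tested genes. The ETS motif CCGGAAG stood in 16 (24.6%, against 18.4%) and the YY1 motif AAGATGGCG in 8 (12.3%, against 3.14%). CCAAT stood in 43.1% of member windows and 42.8% of those of tested genes, and GGGCGG in 40% and 64.5%. A direct repeat of AGGTCA with 4 bases between, the form bound by thyroid hormone receptors, was in 0 of the member windows and 0 of the 11511 windows of tested genes. These are matches of letters and do not show binding.

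Few members changed in any comparison. With T3+T4 against vehicle, 5 of the 76 members were lower and 0 were higher at an adjusted p below 0.05 (edgeR quasi-likelihood test, Benjamini-Hochberg adjustment over 17057 tested genes). In that comparison 15.8% of all tested genes were called, 8.45% lower and 7.33% higher. An unadjusted p below 0.05 was reached by 17 members (22.4%) and by 30.1% of tested genes. With T3 against vehicle, 0 members were called, while 6.77% of tested genes were called, 3.53% higher and 3.24% lower. An unadjusted p below 0.05 was reached there by 5 members (6.58%) and 21.9% of tested genes. With T4 against vehicle 0 members were called, beside 0.41% of tested genes, 0.211% higher and 0.199% lower. An unadjusted p below 0.05 was reached by 3 members (3.95%) and 12.7% of tested genes. Vehicle against control livers gave 1 higher and 0 lower members, beside 9.63% of tested genes, 4.92% higher and 4.71% lower. Here 4 members (5.26%) and 25.6% of tested genes had an unadjusted p below 0.05. DESeq2 called the same 5 members in T3+T4 against vehicle, 0 in T3 and in T4 against vehicle, and the same 1 in vehicle against control. In bulk liver, fewer cells of a type and less RNA per cell cannot be told apart.

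**Figure D1:**
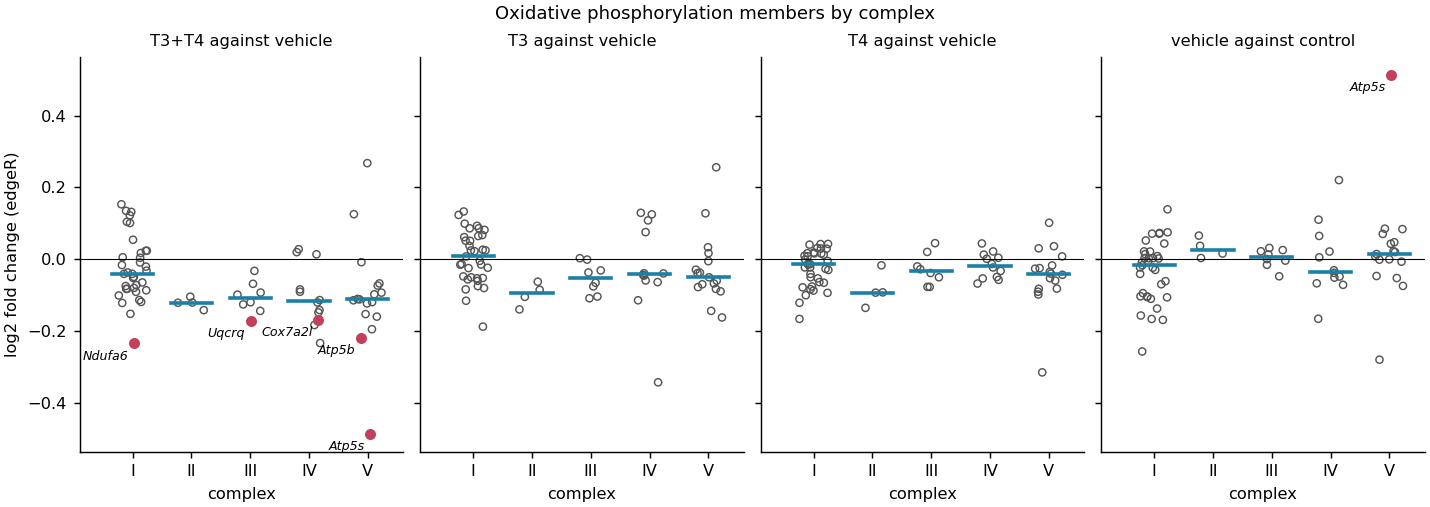
Each point is a member's log2 fold change (edgeR) in 1 of 4 comparisons, grouped by complex; filled points passed an adjusted p of 0.05 and bars are medians. Medians per complex run from -0.12 to 0.03, and Atp5s stands apart at -0.49 in T3+T4 against vehicle and at 0.51 in vehicle against control.

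The estimates were tight within the reported fit, whose intervals do not cover the choice of model, such as the library total covariate. The 95% interval of the log2 fold change lay within 0.5 of 0 on both sides for 96.1% of members in T3+T4 against vehicle and in vehicle against control, and for 97.4% in T3 and in T4 against vehicle. The shares for all tested genes were 55.6% in T3+T4 against vehicle, 57.2% in T3, 62.6% in T4 and 53.3% in vehicle against control. The tested genes include genes below the 5 CPM limit set for members, and 13923 of 17057 reached it. Over all 8 comparisons made, the largest change of 73 members stayed under 0.3 on the log2 scale. Between livers of a group, the members' median coefficient of variation was 6.09% in T3+T4, 9.19% in T3 and 8.27% in T4 livers. It was 6.37% in vehicle and 7.26% in control livers, and it was not computed for other genes. Counts in the table level off toward about 2 per exonic base, and the part of this in the variation was not tested. With counts corrected for this ceiling, the members' median SE in T3+T4 against vehicle was 0.074, against 0.070 without.

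Complex I has core subunits that carry the flavin and iron-sulfur clusters and accessory subunits that surround them. Of its 35 members, 1 was lower with T3+T4 against vehicle, and 0 changed in T3, T4 or vehicle against control. The called member was Ndufa6, an accessory subunit of the matrix arm. Its level was 50.9 CPM at the lowest, 55.1 at the median and 56.8 at the highest of the 7 T3+T4 livers. Vehicle livers had 67.5, 67.3, 66.4, 56.5 and 63.2 CPM. All 7 T3+T4 livers lay below 4 of the 5 vehicle livers, and the groups overlapped through vehicle animal 67. The log2 fold change was -0.23 ± 0.06 (SE, adjusted p = 0.0130), and it was -0.10 ± 0.07 (adjusted p = 0.383) with the log2 library total as a covariate. T3 livers averaged 56.3 ± 3.9 CPM, T4 livers 60.6 ± 5.4 and control livers 61.1 ± 5.6. Against vehicle, T3 gave -0.19 ± 0.07 (adjusted p = 0.0871) and T4 gave -0.08 ± 0.06 (adjusted p = 0.628).

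The other members of complex I spread on both sides of 0 with T3+T4, and apart from Ndufa6 none of the extremes of the complex named here passed the test. Ndufs8, a core iron-sulfur subunit, had the highest value of the complex, 0.15 ± 0.09 (adjusted p = 0.288). Its mean was 57.0 ± 3.7 CPM in T3+T4 livers and 51.3 ± 4.2 CPM in vehicle livers. With T3 the complex ran up to Ndufb3, an accessory subunit of the membrane arm, at 0.13 ± 0.08 (adjusted p = 0.357). With T4 its limits were Ndufb5 at 0.04 ± 0.08 (adjusted p = 0.874) and Ndufs1, the largest core subunit, at -0.17 ± 0.07 (adjusted p = 0.324). In vehicle against control they were Ndufa3 at 0.14 ± 0.09 (adjusted p = 0.348) and Ndufb2 at -0.26 ± 0.11 (adjusted p = 0.154), whose exons are overlapped by Braf.

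Complex II is encoded by 4 genes, all nuclear: Sdha carries the flavin, Sdhb the iron-sulfur clusters, and Sdhc and Sdhd anchor both in the membrane. None passed the test in any comparison. Sdha averaged 336 ± 22 CPM in T3+T4, 336 ± 22 in T3, 337 ± 27 in T4, 371 ± 28 in vehicle and 354 ± 21 in control livers. Its log2 fold change against vehicle was -0.14 ± 0.06 with each of T3+T4 (adjusted p = 0.108), T3 (adjusted p = 0.182) and T4 (adjusted p = 0.326), groups compared with the same 5 vehicle livers. Sdhb averaged 98.1 ± 9.1 CPM in T3+T4, 99.2 ± 14 in T3, 100.1 ± 11 in T4, 107 ± 12 in vehicle and 106 ± 13 in control livers. Of the anchors, Sdhc averaged 137 ± 7.5 CPM in T3+T4, 141 ± 11 in T3, 140.1 ± 13 in T4, 149 ± 11 in vehicle and 146 ± 7.7 in control livers. Sdhd averaged 211 ± 12 CPM in T3+T4, 217 ± 17 in T3, 224 ± 18 in T4, 226 ± 16 in vehicle and 226 ± 12 in control livers. In all 4 genes the groups overlapped.

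Complex III holds core proteins, the Rieske iron-sulfur protein and small accessory subunits. Of its 8 members, 1 was lower with T3+T4 against vehicle and 0 changed in the other 3 comparisons. The called member was Uqcrq, a small subunit that binds ubiquinone. It had 73.7 CPM at the lowest, 84.3 at the median and 87.6 at the highest of the T3+T4 livers. Vehicle livers had 89.6, 97.6, 95.9, 93.9 and 87.2 CPM, so only the highest T3+T4 liver reached the lowest vehicle liver. The log2 fold change was -0.17 ± 0.06 (adjusted p = 0.0351), and -0.01 ± 0.05 (adjusted p = 0.909) with the log2 library total as a covariate. Control livers had 91.7, 82.4, 91.6, 95.1 and 93.4 CPM. The Rieske protein gene Uqcrfs1 averaged 190.2 ± 11 CPM in T3+T4 livers and 210.2 ± 12 CPM in vehicle livers (log2 fold change -0.14 ± 0.06, adjusted p = 0.0931). At the upper end of the complex stood Uqcr11 with T3+T4 at -0.03 ± 0.07, and Uqcr10 with T3 at 0.00 ± 0.07 and with T4 at 0.04 ± 0.07. Uqcrc2, a core protein, was at the lower end with T3 at -0.11 ± 0.06 and with T4 at -0.08 ± 0.06. In vehicle against control the complex ran from Uqcr11 at -0.05 ± 0.08 to Uqcrq at 0.03 ± 0.06. None of these passed the test, with adjusted p from 0.289 to 0.988.

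Complex IV is the terminal oxidase, whose nuclear subunits surround a mitochondrially encoded core. Of its 12 members, counting Ndufa4 and Ndufa4l2 here, 1 was lower with T3+T4 against vehicle and 0 changed in the other 3 comparisons. The called member was Cox7a2l, a gene known for a part in supercomplexes of complexes III and IV. Whether its product has that role in these C57Bl/6J mice was not tested. It had 119 CPM at the lowest, 126 at the median and 135 at the highest of the T3+T4 livers. Vehicle livers had 132, 159, 134, 142 and 137 CPM, and control livers had 136, 124, 128, 131 and 134 CPM. The single highest T3+T4 liver overlapped the vehicle range. The log2 fold change was -0.17 ± 0.06 (adjusted p = 0.0470), and -0.08 ± 0.07 (adjusted p = 0.468) with the log2 library total as a covariate. This was the least stable of the 5 calls, kept in 4 of 13 other settings and in 11 of 31 fits without 1 library. Ndufa4l2, a hypoxia-responsive relative of Ndufa4, had the lowest value of the complex but the widest error, -0.23 ± 0.36 (adjusted p = 0.705). It averaged 5.97 ± 1.3 CPM in T3+T4 livers and 7.08 ± 4.3 CPM in vehicle livers, 1 of which had 14.6 CPM. With T3 its value was -0.34 ± 0.37, with T4 -0.07 ± 0.35 and in vehicle against control 0.22 ± 0.39. All 4 signs turned without vehicle animal 55, the liver at 14.6 CPM, with values of 0.20 with T3+T4, 0.09 with T3, 0.37 with T4 and -0.22 in vehicle against control. The other extremes of the complex were Cox5b with T3+T4 at 0.03 ± 0.08, Cox6c with T3 at 0.13 ± 0.11, and Cox5a at 0.04 ± 0.09 with T4 and -0.17 ± 0.10 in vehicle against control, none of them called.

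Complex V, the ATP synthase, has a catalytic F1 head, a ring of c subunits in the membrane and a stalk that holds the head still. Of its 17 members, 2 were lower with T3+T4 against vehicle, Atp5b and Atp5s. Atp5b had 292 CPM at the lowest, 335 at the median and 367 at the highest of the T3+T4 livers. Vehicle livers had 375, 404, 408, 372 and 362 CPM, and control livers had 370, 337, 390, 388 and 375 CPM. Of the 7 T3+T4 livers, 6 lay below every vehicle liver. The log2 fold change was -0.22 ± 0.07 (adjusted p = 0.0238), and -0.01 ± 0.05 (adjusted p = 0.897) with the log2 library total as a covariate. Atp5k, a small membrane subunit, had the highest value of the module, 0.27 ± 0.12 (adjusted p = 0.122), with 12.1 ± 1.1 CPM in T3+T4 livers, 10.1 ± 1.8 in vehicle livers and 12.3 ± 1.6 in control livers. Atp5k was also the highest of complex V with T3 (0.26 ± 0.12, adjusted p = 0.216) and T4 (0.10 ± 0.12, adjusted p = 0.778), and the lowest in vehicle against control (-0.28 ± 0.13, adjusted p = 0.165). Its T3+T4 value became 0.43 ± 0.14 (adjusted p = 0.0418) with the log2 library total as a covariate. A further member, Atp5o, the stalk subunit that confers oligomycin sensitivity, ran from 52.4 to 57.9 CPM in T3+T4 livers, below all vehicle livers (58.6 to 65.8 CPM), but missed the threshold (-0.15 ± 0.06, adjusted p = 0.0726). The accessory complex I gene Ndufa2 likewise did not overlap, at 37.8 to 43.1 CPM in T3+T4 livers and 44.4 to 46.9 CPM in vehicle livers (-0.15 ± 0.08, adjusted p = 0.17). With Atp5s these make 3 of the 76 members, and the share of all tested genes that separate in this way was not counted. Within groups, the slope of log2 CPM on log2 library total was -0.40 for Atp5o and -0.59 for Ndufa2. Neither gene was called with the log2 library total as a covariate.

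**Figure D2:**
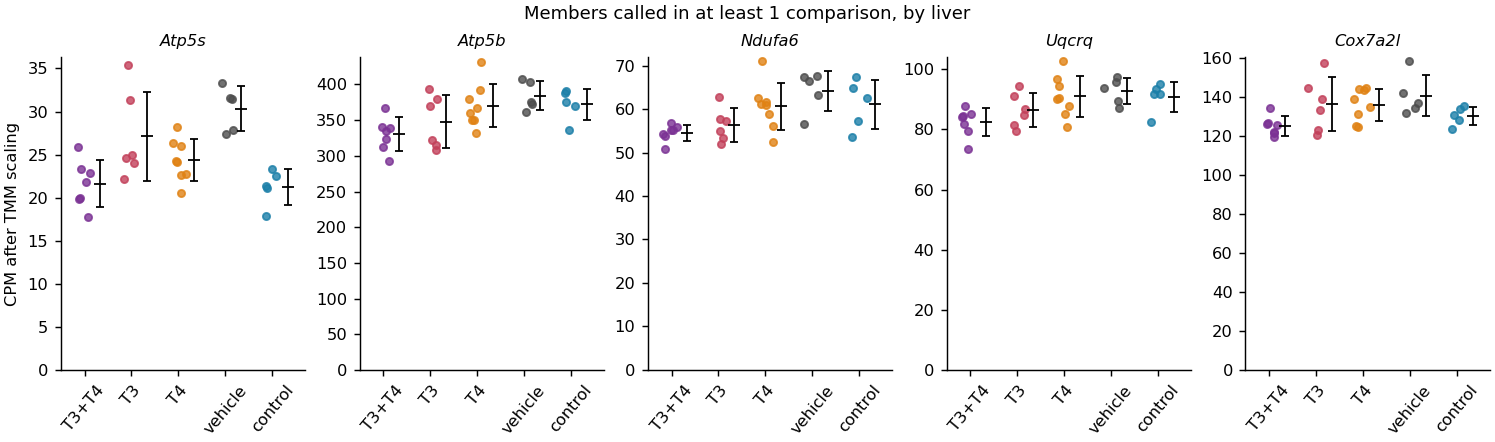
CPM per liver (y axis, linear and starting at 0) of the 5 members called in at least 1 comparison, with each group's mean and SD beside the points. For Atp5s the T3+T4 livers (17.7 to 25.9) and the control livers (17.8 to 23.3) lie below all vehicle livers (27.4 to 33.3), while the other 4 genes overlap between T3+T4 and vehicle.

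Atp5s was the one member called in 2 comparisons. It codes for a protein named for coupling factor B, and RefSeq lists the gene as Dmac2l, so its place in the rule rests on its older symbol. GENCODE M21 places it on chromosome 12 at 69724950 to 69744660 of mm10, plus strand. It had 17.7 CPM at the lowest, 21.9 at the median and 25.9 at the highest of the 7 T3+T4 livers. The same values were 22.2, 24.8 and 35.4 CPM over the 6 T3 livers, and 20.6, 24.2 and 28.2 CPM over the 8 T4 livers. Vehicle livers had 27.4, 31.5, 31.6, 33.3 and 27.9 CPM, and control livers had 23.3, 22.5, 21.3, 17.8 and 21.2 CPM. Every vehicle liver was above every control liver and above every T3+T4 liver. The share of all tested genes that separate in this way was not counted for either comparison. T4 livers lay below the vehicle range in 7 of 8 cases, and T3 livers spread from below to above it, with the highest at animal 61.

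Vehicle exceeded control livers by 0.51 ± 0.12 on the log2 scale (adjusted p = 0.00496), and T3+T4 livers were lower than vehicle livers (log2 fold change -0.49 ± 0.10, adjusted p = 0.00212). Both comparisons use the same 5 vehicle livers. T4 against vehicle gave -0.32 ± 0.10 (adjusted p = 0.159) and T3 against vehicle gave -0.16 ± 0.11 (adjusted p = 0.407). Against control, T3+T4 gave 0.03 ± 0.11 (adjusted p = 0.988, 95% interval -0.19 to 0.25), T3 gave 0.35 ± 0.11 (adjusted p = 0.116) and T4 gave 0.20 ± 0.10 (adjusted p = 0.297). T4 against T3 gave -0.15 ± 0.10 (adjusted p = 0.503). The call for T3+T4 against vehicle held in all 13 other settings run and without each library in turn, with adjusted p from 4.52e-04 to 0.0318. The call for vehicle against control was lost only among animals 54 to 85 (adjusted p = 0.538), a subset with 1 control liver.

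No exon of another gene overlaps those of Atp5s in the annotation used. Of the 76 members, 27 have exons overlapped by another gene, and for these the reads could be shared.

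The other 4 comparisons gave 0 member calls with edgeR and with DESeq2. T4 against T3 called 0.551% of tested genes, 0.158% higher and 0.393% lower, and an unadjusted p below 0.05 was reached by 0 members and 14.2% of tested genes. T4 against control called 3.54% of tested genes, 1.83% higher and 1.71% lower. There 3 members (3.95%) and 19.8% of tested genes had an unadjusted p below 0.05. The smallest adjusted p among these 3 was that of Ndufb2, an accessory subunit of complex I, at 14.3 ± 1.7 CPM in T4 livers and 17.6 ± 2.2 CPM in control livers (-0.31 ± 0.10, adjusted p = 0.0889). Without T4 animal 40, Ndufb2 passed the threshold (adjusted p = 0.0372) and the count became 1. Behind it stood Ndufa1 (-0.15), Ndufs8 (-0.19) and Ndufa5 (-0.16) on the lower side, with adjusted p of at least 0.209. On the upper side stood Atp5s, Cox7a2l (0.06), Atp5g2 (0.06) and Cox6c (0.09), with adjusted p of at least 0.297.

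T3 against control called 0.211% of tested genes, 0.17% higher and 0.041% lower. There 1 member (1.32%), Atp5s, and 17.4% of tested genes had an unadjusted p below 0.05. The members next to Atp5s were Cox6c (0.19), Ndufa3 (0.12) and Ndufc1 (0.09) on the upper side and Ndufv3 (-0.11), Ndufa6 (-0.12), Ndufa4 (-0.11) and Uqcrc2 (-0.10) on the lower side, with adjusted p of at least 0.298. T3+T4 against control called 0 members and 0% of tested genes in either direction. An unadjusted p below 0.05 was reached by 12 members (15.8%), a larger share than the 7.19% of tested genes. The lowest adjusted p there belonged to Cox8a, at 70.6 ± 4.9 CPM in T3+T4 livers and 81.6 ± 6.2 CPM in control livers (-0.21 ± 0.07, adjusted p = 0.413). Cox6a1 (-0.19), Atp5b (-0.17) and Ndufa6 (-0.16) followed on the lower side, with adjusted p of at least 0.531. Ndufa3 (0.07), Atp5sl (0.12), Ndufs4 (0.02) and Atp5s led the upper side, with adjusted p of at least 0.94.

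With T3+T4 against vehicle the median log2 fold change of the members was -0.09, with 59 of 76 negative, against -0.00 over all tested genes, of which 50.6% were negative; with the log2 library total as a covariate this turned to 0.06, with 62 of 76 positive. By complex the medians without the covariate were -0.04 in complex I (23 of 35 negative), -0.12 in complex II (4 of 4), -0.11 in complex III (8 of 8), -0.12 in complex IV (9 of 12) and -0.11 in complex V (15 of 17). With T3 against vehicle the median was -0.04 (49 negative) and turned to 0.08 with the covariate. With T4 against vehicle it was -0.03 (52 negative), -0.02 with the covariate and 0.01 when libraries were scaled by their totals alone, a scaling that moved the median of all tested genes from 0.00 to 0.04. In vehicle against control it was 0.00 (37 negative). Against the control livers, which these 3 comparisons share, the median was -0.08 with T3+T4 (70 negative), -0.05 with T3 (55 negative) and -0.05 with T4 (56 negative). With the covariate these became 0.04 with T3+T4 (62 positive), 0.05 with T3 (65 positive) and -0.06 with T4 (63 negative).

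The members took a smaller share of deeper libraries. Within groups, the slope of log2 CPM on log2 library total was negative for 73 of 76 members, with a median of -0.43, against 0.17 over all tested genes, of which 6235 of 17057 had a negative slope. Libraries of the T3+T4 and T3 groups were also the deepest, so hormone and depth move together in these groups. In the table, counts level off toward about 2 per exonic base, and the members span 0.0202 to 1.06 counts per base of the principal transcript. The median log2 fold change in T3+T4 against vehicle was -0.00 in the 26 members with the fewest counts per base, -0.09 in the next 25 and -0.11 in the 25 with the most. Over the 76 members, which share these libraries, the rank correlation of fold change and counts per base was -0.50. The part of depth in the calls was not tested beyond the covariate, under which Atp5s (-0.51 ± 0.13, adjusted p = 0.0137) stayed lower, Atp5k and Ndufs4 (0.24 ± 0.07, adjusted p = 0.0319) became higher, and the other 4 calls were lost.

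**Figure D3:**
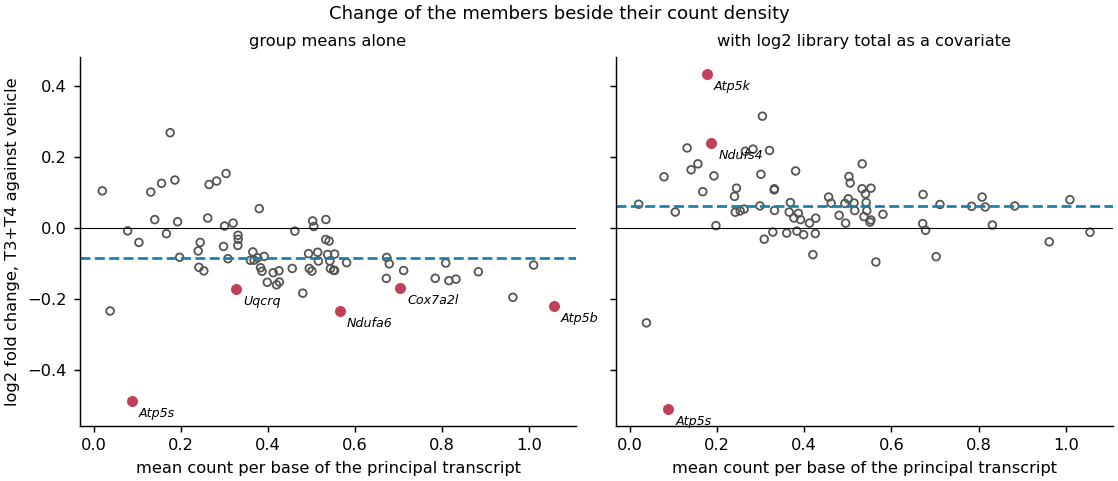
Log2 fold change of each member in T3+T4 against vehicle (y axis) beside its mean count per base of the principal transcript (x axis), without and with the log2 library total as a covariate; dashed lines are medians and filled points passed an adjusted p of 0.05. The median is -0.09 on the left and 0.06 on the right, and Atp5s keeps its place at -0.49 and -0.51.

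Summed over all members, the level was 5994 ± 290 CPM in T3+T4, 6199 ± 544 in T3, 6205 ± 434 in T4, 6407 ± 307 in vehicle and 6386 ± 372 in control livers (SD). Group ranges overlapped, with T3+T4 livers from 5471 to 6331 CPM and vehicle livers from 6040 to 6815 CPM. T3+T4 livers stood at 93.6% of the vehicle mean over all members, at 97.0% in complex I, 91.6% in complex II, 92.3% in complex III, 92.6% in complex IV and 91.4% in complex V. The hepatocyte list moved in the same comparison. With T3+T4 against vehicle, 4 of its 6 genes (Apob, Alb, Apoa1 and Serpina1a) were lower, with a list median of -0.24. Of all tested genes 8.45% were called lower there. With T3 against vehicle, where 0 members were called, 2 of the 6 (Apob and Alb) were lower and the list median was -0.23. With T4 against vehicle 0 of the 6 were called and the list median was -0.04. The list's mean level ran from 667 to 835 CPM in T3+T4 livers and from 903 to 962 CPM in vehicle livers. The list's part in the members' levels was not tested, nor was the part of library depth or of the levelling of counts in the list itself.

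**Figure D4:**
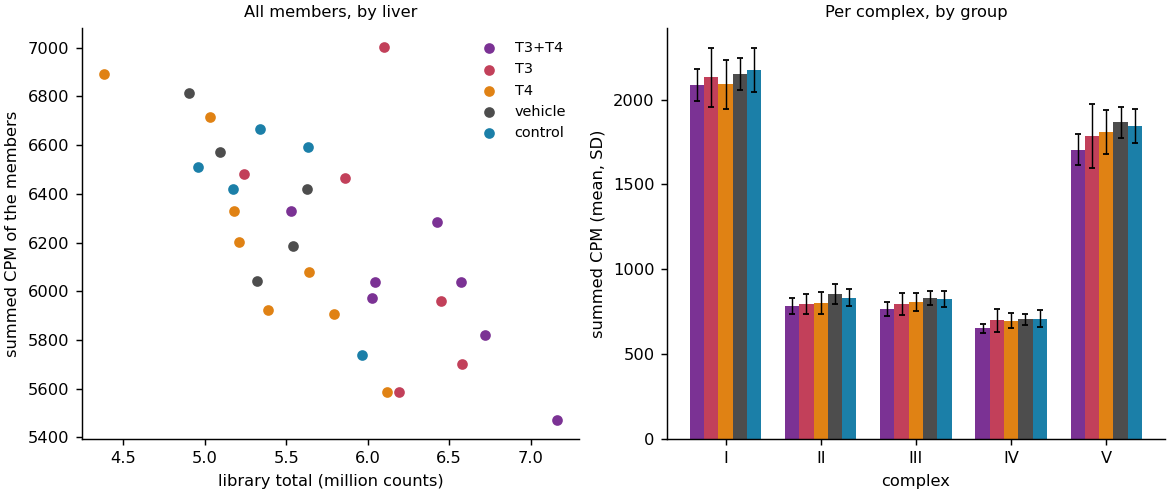
Left, summed CPM of the 76 members (y axis) beside the library total (x axis), 1 point per liver; right, mean summed CPM per complex and group with SD bars. The lowest sum, 5471, is in the largest library, a T3+T4 liver, and the smallest library, a T4 liver, has 6893.

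Some single livers stood apart from their groups. T3 animal 61 had the highest sum of all 31 livers, 7003 CPM, at a library total of 6101175, and was the highest of all livers for 22 members. The same liver had 393 CPM of Ppargc1a, the coactivator that drives mitochondrial biogenesis, against 64.6 to 129 in the other T3 livers, and 122 CPM of Esrra, a nuclear receptor it works with, against 56.1 to 70.8. Cox6c, a complex IV subunit, stood at 89.3 CPM there and at 47.9 to 61.5 in the other T3 livers. T4 animal 70, the smallest library, was the highest of all livers for more members, 25, with a sum of 6893 CPM. It had 62.7 CPM of Ppargc1a and 98.9 CPM of Esrra. T3+T4 animal 78, the largest library, was the lowest of all livers for 22 members. Control animal 47 was the lowest of the 5 control livers for 71 of 76 members, with a sum of 5740 CPM against 6420 to 6665, and had the largest library of its group. Leaving out T3 animal 61 gave 1 call in T3 against vehicle, Ndufa6, and 7 in T3+T4 against vehicle, and leaving out control animal 47 changed no count of member calls.

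Levels differed widely between members. Per kilobase of the principal transcript, a length chosen after the data were seen, the highest were Atp5b at 186 CPM per kb, Sdhd at 178, the c subunit gene Atp5g3 at 169, the F1 alpha subunit gene Atp5a1 at 155 and Uqcrfs1 at 146. The lowest on that scale were Ndufb2 at 3.52, Ndufa4l2 at 6.67, Atp5g1 at 13.7, Atp5s at 15.3 and Ndufc1 at 18.2. The longest principal transcript of each gene was used, 4371 bases for Ndufb2 and 4715 for Atp5g1, and Ndufb2 has 5628 exonic bases. The low places of Ndufb2 and Atp5g1 rest in part on these lengths. Per kilobase of all exonic bases, Sdhd, Uqcrfs1, Cox8a, Atp5a1 and Cox6a1 led and Ndufb2, Atp5l, Ndufa4l2, Ndufb5 and Atp5s were last, so Sdhd, Uqcrfs1 and Atp5a1 were among the highest and Ndufb2, Ndufa4l2 and Atp5s among the lowest on either length. Just above the limit for members stood Ndufa4l2 at 6.23 CPM, Atp5k at 11.4 and Ndufb2 at 15.4. Just below it stood Cox6b2 at 3.18, Cox6a2 at 1.85 and Cox7a1 at 1.84.

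Several complex IV subunits and the c subunit come as families of related genes, and some of the complex IV genes are forms of particular tissues. In the complex IV families below, the broadly expressed genes were the abundant ones in these livers. Per kilobase of the principal transcript, Cox6a1 stood at 144 CPM per kb and Cox6a2, the heart and muscle form, at 2.72. Cox6b1 stood at 84.6 and Cox6b2, a form known from testis, at 5.44. Cox8a stood at 138 and the heart and muscle form Cox8b at 3.54, while Cox8c and Cox7b2 were at the table's lowest value in all 31 livers. Cox7a2 stood at 66.0 and Cox7a2l at 123, against 4.69 for Cox7a1, the muscle and brown fat form. Ndufa4 stood at 80.2 and Ndufa4l2 at 6.67. Of the 3 genes for the identical mature c subunit, Atp5g3 stood at 169 CPM per kb, Atp5g2 at 67.3 and Atp5g1 at 13.7. The length used was 4715 bases for Atp5g1, 731 for Atp5g2 and 723 for Atp5g3, and the last place of Atp5g1 rests on it. Before division by length, Atp5g3 stood at 122 CPM, Atp5g1 at 64.8 and Atp5g2 at 49.2.

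The broadly expressed forms varied little between groups. Cox6a1 averaged 76.5 ± 5.3 CPM in T3+T4, 81.3 ± 6.7 in T3, 84.8 ± 7.6 in T4, 84.8 ± 4.8 in vehicle and 87.0 ± 7.7 in control livers. Group means ran from 49.0 to 55.6 CPM for Cox6b1, 42.5 to 45.0 for Cox7a2, 70.6 to 81.6 for Cox8a, 46.9 to 52.5 for Ndufa4, 63.7 to 68.2 for Atp5g1 and 46.6 to 51.7 for Atp5g2. Atp5g3 averaged 113 ± 5.0 CPM in T3+T4, 126 ± 22 in T3, 126 ± 9.6 in T4, 130 ± 8.2 in vehicle and 122 ± 5.8 in control livers (T3+T4 against vehicle -0.20 ± 0.08, adjusted p = 0.0836). Cox7a1 ran from 2.13 to 3.68 CPM in T3 livers and from 1.28 to 2.03 in vehicle livers (0.81 ± 0.31, adjusted p = 0.109). These groups did not overlap, and the share of all tested genes that separate in this way was not counted. Cox6a2 and Cox8b were high in single livers: 8.65 and 11.8 CPM of Cox6a2 in T3 animals 60 and 64, 10.1 in T4 animal 69, and at most 1.27 in vehicle livers. Those 3 livers also had the highest means of the skeletal muscle list, 29.1, 51.7 and 29.5 CPM, against at most 1.35 in vehicle and 0.393 in control livers. With T3 against vehicle, 7 of the 8 tested skeletal muscle genes were higher and Cox8b was called (3.65 ± 1.10, adjusted p = 0.0404). All vehicle livers had 1 or 2 counts of Cox8b, where 1 is the lowest value of the table, so the fitted size of its change has no firm base. The part of muscle RNA in these 2 genes was not tested.

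**Figure D5:**
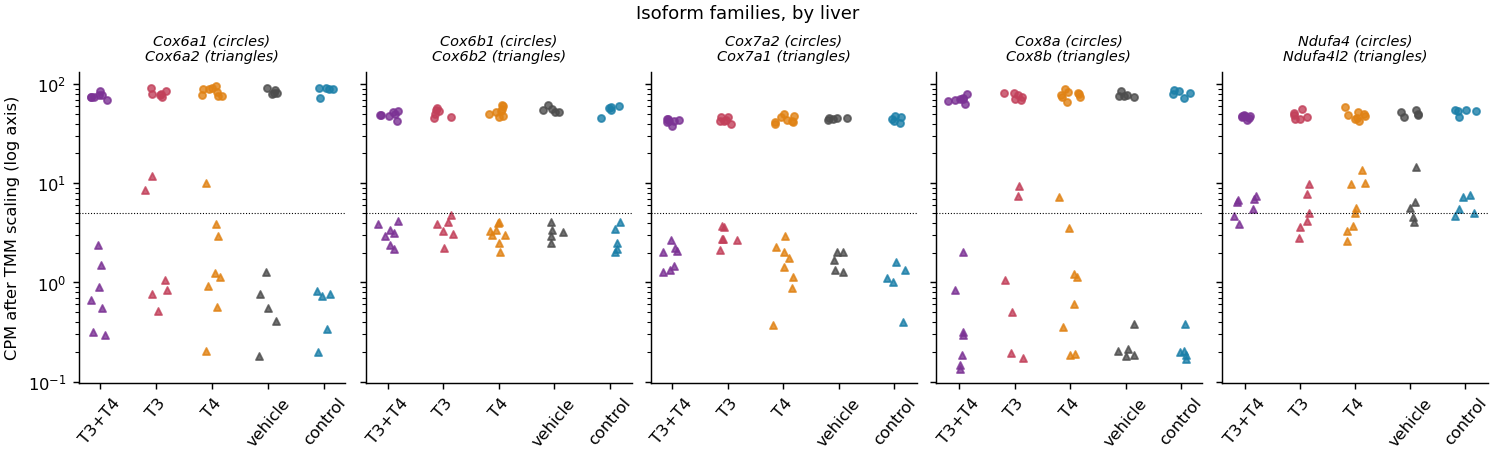
CPM per liver on a log axis for 5 pairs of isoform genes, with circles for the broadly expressed form, triangles for the other form and a dotted line at the 5 CPM limit. Circles stay at 37.6 CPM or above, and the triangles of Cox6a2 reach 8.65 and 11.8 CPM in 2 T3 livers and 10.1 CPM in 1 T4 liver.

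Genes around the module were taken from lists of assembly factors of the 5 complexes, electron carriers and coenzyme Q genes, regulators of mitochondrial biogenesis, nucleotide and phosphate carriers and the Cox4 genes. Of 88 listed genes, 78 were tested. With edgeR, T3+T4 against vehicle gave 5 higher and 3 lower (10.3%, against 15.8% of all tested genes), T3 against vehicle gave 2 higher and 1 lower (3.85%, against 6.77%), and vehicle against control gave 1 higher and 3 lower (5.13%, against 9.63%). T4 against vehicle and T4 against T3 gave 0, with 7 and 14 genes at an unadjusted p below 0.05. DESeq2 called 2 genes of the list of electron carriers and coenzyme Q genes in T4 against vehicle and 1 in T4 against T3. Of the 17 tested genes of that list, edgeR called 2 higher and 2 lower in T3+T4 against vehicle.

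Gpd2, the mitochondrial glycerol-3-phosphate dehydrogenase that passes electrons straight to ubiquinone, is a known thyroid hormone target of liver and had the largest fitted changes among these lists. It averaged 242 ± 55 CPM in T3+T4, 229 ± 68 in T3, 194 ± 60 in T4, 89.7 ± 61 in vehicle and 242 ± 70 in control livers. Vehicle livers had 45.0, 80.6, 36.7, 190.2 and 96.0 CPM, and the one at 190.2 reached into the control range of 178 to 346 CPM. The log2 fold change was 1.43 ± 0.30 with T3+T4 (adjusted p = 0.00192), 1.35 ± 0.31 with T3 (adjusted p = 0.00917) and 1.11 ± 0.30 with T4 (adjusted p = 0.0819) against vehicle, and -1.43 ± 0.32 in vehicle against control (adjusted p = 0.00496). The T3+T4 and vehicle against control calls were lost among animals 54 to 85 and without the libraries high in muscle or acinar genes. The T3 call was lost in these 2 settings, in a fit of the compared groups only and with the log2 library total as a covariate.

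Coq10a, which binds coenzyme Q, was higher with T3+T4 by 1.03 ± 0.14 (adjusted p = 7.45e-06) and with T3 by 0.98 ± 0.14 (adjusted p = 7.42e-05) against vehicle. In vehicle against control it was lower (-0.89 ± 0.14, adjusted p = 0.000243), a call lost among animals 54 to 85. It averaged 58.3 ± 7.4 CPM in T3+T4, 56.2 ± 10 in T3, 40.6 ± 5.5 in T4, 28.4 ± 5.5 in vehicle and 52.6 ± 8.9 in control livers. Etfdh and Etfa carry electrons from fatty acid oxidation to ubiquinone. Etfdh was lower with T3+T4 (-0.20 ± 0.05, adjusted p = 0.00462) and T3 (-0.17 ± 0.05, adjusted p = 0.0309), and Etfa was lower with T3+T4 (-0.25 ± 0.05, adjusted p = 0.00194). These 3 calls were lost with the log2 library total as a covariate, among animals 54 to 85 and without the libraries high in muscle or acinar genes, and the Etfdh call with T3 was kept in only 5 of 13 other settings. Among the other lists, with T3+T4 against vehicle, the uncoupling protein gene Ucp2 was higher (0.54 ± 0.13, adjusted p = 0.00629), as were the assembly factor genes Coa7 of complex IV (0.21 ± 0.06, adjusted p = 0.0157) and Atpaf2 of complex V (0.25 ± 0.08, adjusted p = 0.0456). Cox4i1, the main form of the complex IV subunit that the symbol rule missed, was lower (-0.18 ± 0.06, adjusted p = 0.0406) and stood at -0.00 with the log2 library total as a covariate. All 4 calls were lost among animals 54 to 85 and without the libraries high in muscle or acinar genes, and those of Coa7 and Atpaf2 also with the covariate. In vehicle against control, Coa7 was lower (-0.22 ± 0.07, adjusted p = 0.0319) and Ndufaf7, a methyltransferase that acts in complex I assembly, was higher (0.24 ± 0.07, adjusted p = 0.0295), and both calls were lost in those same 2 subsets and with sex as a covariate. The Ndufaf7 call was also lost with DESeq2, without the filter on low counts and in a fit of the compared groups only.

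Of the 12 regulators of mitochondrial biogenesis edgeR called 0 in each of these 5 comparisons, with 1 to 4 at an unadjusted p below 0.05. DESeq2 called 1 in vehicle against control and 0 in the other 4, and edgeR called 1 in T3+T4 against vehicle with libraries scaled by their totals alone or with no filter on low counts. Ppargc1a averaged 80.9 ± 19 CPM in T3+T4, 143 ± 125 in T3, 72.4 ± 21 in T4, 137 ± 67 in vehicle and 63.9 ± 13 in control livers, and vehicle against control gave 1.10 ± 0.37 (adjusted p = 0.0579). Nrf1 averaged 39.4 ± 2.9 CPM in T3+T4, 40.3 ± 5.6 in T3, 42.6 ± 6.7 in T4, 35.2 ± 3.4 in vehicle and 38.3 ± 3.6 in control livers. Gabpa, the DNA-binding subunit of GABP, averaged 170 ± 13 CPM in T3+T4, 167 ± 23 in T3, 153 ± 16 in T4, 165 ± 9.2 in vehicle and 168 ± 4.6 in control livers. Tfam, which packages and transcribes mitochondrial DNA, stayed between 137 and 146 CPM in all group means. Esrra averaged 78.0 ± 7.5 CPM in T3+T4, 75.4 ± 23 in T3, 76.7 ± 11 in T4, 76.7 ± 11 in vehicle and 68.2 ± 6.6 in control livers. Cycs, the cytochrome c gene, averaged 106 ± 10 CPM in T3+T4, 106 ± 24 in T3, 89.6 ± 17 in T4, 84.8 ± 7.1 in vehicle and 105 ± 9.6 in control livers. T3+T4 against vehicle gave 0.32 ± 0.13 for it (adjusted p = 0.0933).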

How the data were processed

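The deposited table holds 1 count per gene for 31 liver libraries, each named in the columns by animal. Per the labels' protocols, TRIzol RNA (1 ug, RIN of at least 7.5) went into a stranded mRNA library kit. The submitters' processing notes name bcl2fastq, Trimmomatic, BWA 0.7.10, DESeq and the build GRCh38, while the column names give mm10. The counting tool and its strand setting are not given in the sources used here. Per the file itself, the lowest count is 1 in all 31 columns (50.1% of values) and counts level off near 2 per exonic base.

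Counts were tested with edgeR 4.0.16 (R 4.3.3; quasi-likelihood test, TMM scaling, filterByExpr, 17057 genes, 1 fit of 5 group means over 31 libraries, Benjamini-Hochberg adjustment, threshold 0.05). CPM values per liver, their group means and the summed CPM are TMM-scaled. Means of marker lists, means over all libraries, CPM per kb and the slopes on library total use CPM from library totals alone. Fold changes are log2 with SE. Annotation came from GENCODE M21, which held 97.5% of the gene IDs. Alternatives used DESeq2 1.42.0, other scalings, filters and covariates (sex as inferred from expression and the log2 library total among them), subsets of libraries, and each library left out in turn. On simulated data for T3 against vehicle, 60% of 200 genes changed 1.5-fold and 95.5% of 200 genes changed 2-fold were recovered. In these runs 8 and 5 other genes were called. Smaller changes, such as those of most members, were not simulated, nor were the levelling of counts and the slope of levels on library total. No pair of livers of a group held identical values.

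Named with values are all called members, the 4 with the smallest adjusted p per direction in the 3 hormone against control comparisons, isoform families, complex II, the 5 highest and 5 lowest per kb, the 3 on each side of the limit, and each complex's extremes. The members, lists and tests were chosen with earlier results of these data known. Replicates are numbered animals with no statement on litters, so p-values measure the spread between these livers only.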

Additional observations from a re-analysis of the deposited data

Results flagged for a closer look

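A liver was marked where its gap to the nearest liver of its group was large for the group's range (Dixon's 95% criterion). Of 265 sets of values examined, 24 were marked (9.06%), and chance alone marks about 1 in 20.

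Control animal 47, the largest library of its group, accounts for 12 of them, always as the lowest of 5. It had 369 CPM of Atp5a1 (others 403 to 416), 112 of Atp5g3 (124 to 126), 73.4 of Cox6a1 (89.3 to 92.1), 46.4 of Ndufa4 (53.3 to 54.9), 132 of Sdhc (148 to 151), 37.9 of Uqcr11 (43.6 to 45.7), 134 of Uqcrc2 (145 to 148) and 82.4 of Uqcrq (91.6 to 95.1). Its summed CPM was 745 in complex III (832 to 861), 618 in complex IV (715 to 745), 1667 in complex V (1874 to 1900.0) and 5740 over all members (6420 to 6665).

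T3 animal 61 was the highest T3 liver for Ppargc1a at 393 CPM (others 64.6 to 129), Esrra at 122 (56.1 to 70.8), Cox6c at 89.3 (47.9 to 61.5) and Ndufb5 at 65.5 (45.5 to 51.8). T3+T4 animal 78, the largest library of all, had the lowest Cox7a2 of its group, 37.6 CPM (41.9 to 44.7). Vehicle animal 55 had the highest Cox8a, 85.9 CPM (74.8 to 77.0), and Ndufa4l2, 14.6 CPM (4.04 to 6.49), of its group. T4 animal 40 had 57.6 CPM of Ndufb5 (45.4 to 50.3).

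The other marks fall on genes near or below the limit for members. Cox6a2 stood at 10.1 CPM in T4 animal 69 (0.204 to 3.85). Cox8b stood at 2.03 CPM in T3+T4 animal 79 (0.134 to 0.834), at 0.382 in vehicle animal 2019 (0.182 to 0.212) and at 0.381 in control animal 59 (0.169 to 0.203). Both livers 69 and 79 had a skeletal muscle list mean above 5 CPM, whose part was not tested.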

How the results depend on the processing

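No paired analysis was possible because the groups share no animal numbers. In T3+T4 against vehicle the 5 calls became 2 without the filter on low counts, 3 with the log2 library total as a covariate, 1 among animals 54 to 85, 1 without the libraries high in muscle or acinar genes, and 3 with counts corrected for a ceiling of 2 per base of the principal transcript, a setting chosen after seeing the data. Leaving out 1 library gave 2 to 7 calls: 3 without T3+T4 animals 72 or 77 or vehicle animals 55 or 67, and 2 without T3+T4 animals 78 or 84 or vehicle animal 38. Atp5s was called in each of these. In vehicle against control the count became 0 among animals 54 to 85, a subset with 1 control liver. In T3 against vehicle it became 1 (Cox8b) with a limit of 1 CPM for members, and 0 to 1 with libraries left out (Ndufa6, without T3 animal 61 or vehicle animal 67). In T4 against control it ran from 0 to 1 with libraries left out (Ndufb2, without T4 animal 40). The cause was not tested. The other 4 comparisons kept 0 calls in all settings run. The summed levels moved by less than 1 SD under the other scalings, count corrections, subsets and single libraries left out. Some of these small differences changed sign, as in complex IV with T4 against vehicle (-0.02, up to 0.02 in another setting). The sums were not computed with the log2 library total as a covariate, which turned the sign of the members' median in T3+T4 against vehicle. The mean count was 35.5 for Ndufa4l2, the lowest member, and 2181 for Atp5a1, and the part of depth in the members' values was not tested beyond the covariate and the ceilings.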
